A study of Saccharomyces cerevisiae with 6 samples.

Results

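The response of the strain tetYFH1 to doxycycline was read from 4 of the 6 arrays of the series, A Exp 1 and A Exp 2 (here A1 and A2, pair A) and B Exp 1 and B Exp 2 (B1 and B2, pair B). All 4 arrays of that strain were taken, chosen by their labels. The tetYFH1 strain is BQS201, the laboratory strain W303-1A of Saccharomyces cerevisiae with the allele tetO7-YFH1::kanMX4, and W303-1A without that allele (here W303) gave the other 2 arrays. Each two-colour array set cells with 2 µg/ml doxycycline for 10 h against untreated cells of the same strain (0 h in the titles), all grown in YPG rich medium at 30 °C to an A600 of 0.5. The treated RNA carried Cy5 in Exp 1 and Cy3 in Exp 2. Values below are log2 ratios of treated to untreated RNA as deposited, each for 1 of 6174 open reading frames (ORFs), so that −1 is 2-fold lower after treatment.

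The gene YFH1 encodes frataxin, a protein of mitochondria that takes part in building iron-sulfur clusters, the cofactors of respiratory complexes and of many enzymes outside mitochondria. In tetYFH1 the gene stands under a tet operator promoter that doxycycline shuts off. Yeast without frataxin is known for iron accumulation in mitochondria, activation of iron uptake genes and loss of respiration. In yeast the genes for the use of acetate, fatty acids and other poor carbon sources, and many stress genes, are held low while glucose is plentiful and are activated when it runs out.

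The model has limits that bear on every value. The drug and the 10 h cannot be told apart within a strain, and the frataxin level of untreated tetYFH1 relative to W303 was not measured, since no array compared the strains. The direction of the W303 ratios rests on the labels alone. RNA of whole cultures cannot tell fewer cells of a state from less RNA per cell. The labels do not say whether pairs come from separate cultures or share RNA, so the spread behind a p-value is that between these samples alone and may be technical. The 2 arrays of a pair were averaged, each pair counted as 1 replicate (n = 2 for tetYFH1, n = 1 for W303), and so few arrays limit the precision of every value.

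The pairs differed in scale. Ratios spread with an SD of 0.397 (A1) and 0.392 (A2) in pair A, against 0.744 (B1) and 0.654 (B2) in pair B. An exact 0 was listed for 1708 ORFs (27.7%) on B1 and 880 (14.3%) on B2, but for at most 4 on an A array, and 2603 and 1524 values of B1 and B2 were whole log2 numbers. Across the 6174 ORFs, Pearson's r was 0.60 between A1 and A2, 0.40 between B1 and B2 and 0.20 to 0.32 between A and B arrays. With the W303 arrays it was 0.10 to 0.26 for the A arrays and −0.22 to −0.06 for the B arrays. These correlations describe ORFs that share arrays and are not replicates. The medians of A1, A2 and B1 lay between 0.00 and 0.03 and that of B2 at 0.21, and the median of all ORFs was 0.11 over the 4 arrays, so small positive ratios were the commoner ones.

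The target gene was examined first. YFH1 (YDL120W) read −2.64 and −3.29 in pair A and −5.38 and −5.11 in pair B. In W303 it read −0.08 and −0.05. It was far below 0 on each tetYFH1 array and near 0 on both W303 arrays, with a mean of −4.11 ± 1.61 (SD, n = 2), or 17.2-fold lower, and a limma adjusted p of 0.0177. That call was lost without A2 (limma adjusted p 0.401), without B1 (0.171) or without B2 (0.836), while the mean without 1 array stayed between −4.27 and −3.94.

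The first question was how many ORFs moved one way on all 4 arrays. Below 0 on all 4 were 417 ORFs (6.75%), and above 0 on all 4 were 712 (11.5%). Another 2821 ORFs had both signs, and 2224 (36.0%) had an exact 0 on at least 1 array and so could not have one sign on 4. Among the one-sign ORFs, 82 had a mean at least 2-fold lower (1.33% of all ORFs), and 24 a mean at least 2-fold higher (0.389%). On the lower side 35 of the 82 were at least 2-fold lower on every single array and 45 on both pair means. Of the 24 higher ORFs, 0 reached 2-fold on every array and 3 on both pair means (ARB1, PRP43 and SEC5). The array closest to 0 had a median of −0.94 over the 82 and of 0.28 over the 24. Pair B lay further from 0 than pair A for 67 of the 82 lower and for 20 of the 24 higher ORFs. With each array centred on its median, the count below on all 4 became 649 and the count above became 539, so the larger number on the higher side depended on the scaling. Counts over 3 arrays are looser: without B1 the 417, 712 and 24 became 657, 1584 and 46, and without B2 the 417 and the 24 became 850 and 72.

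**Figure D1:**
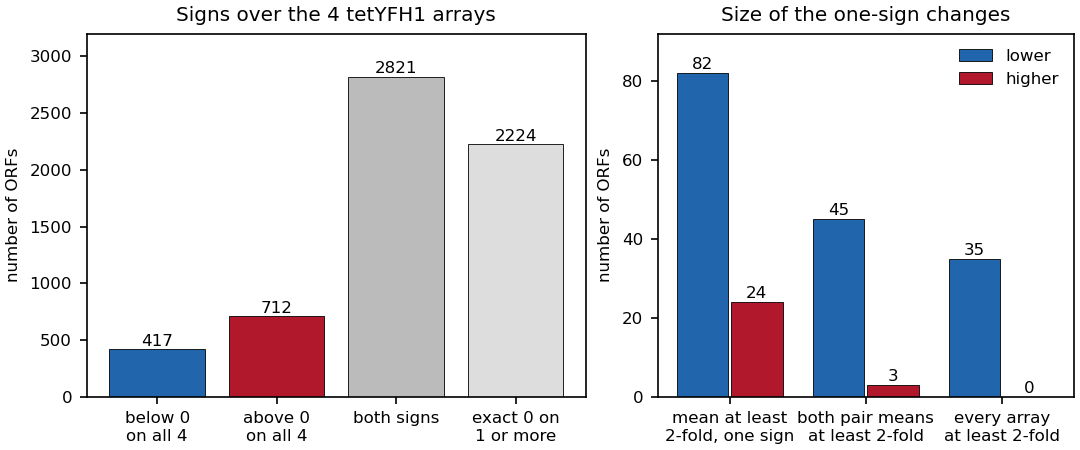
Numbers of ORFs by sign over the 4 tetYFH1 arrays (left) and numbers of one-sign ORFs by how far they lay from 0 (right, blue lower and red higher). More ORFs were above 0 (712) than below 0 (417) on all 4 arrays, but 82 were lower and 24 higher by at least 2-fold on average, and 35 against 0 were so on every array.

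In a test over the pair means the lower side had more ORFs after adjustment, and the higher side had more before it. With limma and an adjusted p under 0.05 over all ORFs, 25 ORFs fell (0.405%) and 0 rose (0%). At an unadjusted p under 0.05 there were 224 lower and 360 higher ORFs, and the smallest adjusted p of any ORF with a mean above 0 was 0.0863. Entering each array as a replicate, limma called 18 ORFs higher, so the count of 0 depended on averaging the pairs. The 25 calls were lost without A2, without B1 or without B2 (0 in each case) and after centring (0), and 15 remained without A1. All 25 were among the 82 lower ORFs, and 13 of the 25 were also below 0 on both W303 arrays. A whole log2 number stood on B1 or B2 for 15 of the 25, and for 3223 of all 6174 ORFs. No ORF passed in the limma test of tetYFH1 minus W303 (0%, with 391 at an unadjusted p under 0.05 and a smallest adjusted p of 0.387), so nothing below is shown to be particular to tetYFH1.

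Genes of acetate and propionate use formed a first group among those that fell. ACS1, which makes acetyl-CoA from acetate, read −2.18, −2.56, −3 and −3 on A1, A2, B1 and B2, and 0.07 and −0.32 in W303. CIT3, a mitochondrial citrate and methylcitrate synthase, read −2.22, −2.49, −2.81 and −2.41, and 0.29 and 0.70 in W303. The 4 arrays of each gene lay within about 1 log2 unit and none overlapped the W303 values. ACS1 fell 6.43-fold and CIT3 5.58-fold, with a limma adjusted p of 0.00944 for both. ICL2, the mitochondrial 2-methylisocitrate lyase that works in the same propionate pathway as CIT3, fell by 1.78 on the log2 scale (−1.38, −1.74, −2 and −2). PDH1, the 2-methylcitrate dehydratase between them, lies next to CIT3 in the genome and read −0.90, −1.17, −1.06 and −1 without passing (limma adjusted p 0.189). The 3 methylcitrate genes were thus all below 0 on every array.

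Transporters of acetate and ammonium were below 0 as well. ADY2, an acetate transporter, read −1.54, −1.81, −2.32 and −2.52 in tetYFH1 and 0.74 and 1.48 in W303, so the strains lay on opposite sides of 0. Its paralogue ATO3 read −2.12, −2.38, −2 and −2.16, with −1.11 and −0.47 in W303. Both fell (4.13-fold and 4.49-fold, limma adjusted p 0.0234 and 0.0132). The third member of this transporter family, ATO2, read −0.64, −0.99, −1.27 and −1.81 and did not pass (limma adjusted p 0.206). The lactate and pyruvate transporter JEN1 read −0.68, −0.79, −1.79 and −1.78 (limma adjusted p 0.252). Of 19 hexose transporters 2 (10.5%) were below 0 on all 4 arrays, HXT5 and HXT2, against 6.75% of all ORFs. Above on all 4 was 1 (5.26%), HXT4 (mean 0.41), against 11.5%, and 9 of the 19 had an exact 0. The list's median was 0.12. That median was near the 0.11 of all ORFs, and turned to −0.07 when ORFs with a whole log2 number in pair B were left out. HXT5 and HXT2 had means of −1.71 and −1.62 and both missed the threshold (limma adjusted p 0.085 each). They differed in shape: HXT5 was lower in pair B (−2.11 and −2.43) than in pair A (−1.03 and −1.28), while HXT2 was lower in pair A (−2.08 and −2.14 against −1 and −1.28).

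Fatty acid oxidation in peroxisomes gave a list of 16 measured genes, with 8 below 0 on all 4 arrays and 1 above, against 6.75% and 11.5% of all ORFs. POX1, the acyl-CoA oxidase of its first step, read −1.79, −1.93, −3 and −2 and fell 4.53-fold (limma adjusted p 0.0177). The peroxisomal catalase CTA1 read −1.53, −1.23, −2.66 and −3.21 (mean −2.16, limma adjusted p 0.0797). The later enzymes FOX2 and POT1 had means of −1.32 and −1.58 and did not pass. The list's median log2 ratio was −0.74 in tetYFH1 and −0.06 in W303. The carnitine acetyltransferases YAT2, YAT1 and CAT2, which move acetyl units between compartments, were below 0 on all 4 arrays at means of −1.11, −0.61 and −0.60, and none passed. Of 13 genes of the glyoxylate cycle and gluconeogenesis, 4 were below and 1 above on all 4, at a median of −0.27.

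Small stress proteins were the list with the largest share on the lower side among lists of over 5 genes. Of 15 measured genes, 13 (86.7%) were below 0 on all 4 arrays and 1 (6.67%) was above, against 6.75% and 11.5% of all ORFs. The test passed 5 as lower, namely GRE1, SIP18, HBT1, MSC1 and PAI3, against 0.405% of all ORFs. The list was chosen with earlier results of these data known, so such a share is partly built in. GRE1, a hydrophilin tied to desiccation, read −4.72 on A1 and on A2, the lowest value of each of these arrays, and −3.22 and −3.41 on B1 and B2. SIP18, another hydrophilin, read −3.50, −3.15, −2.08 and −2. Both were also low in W303, GRE1 at −3.02 and −3.42 and SIP18 at −2.45 and −1.50, so the ranges of the strains overlapped for both. In tetYFH1 they fell 16.2-fold and 6.41-fold, with limma adjusted p values of 0.00944 and 0.0207.

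HBT1 was low in tetYFH1 but not in W303. HBT1, a protein of the mating projection tip, read −1.74, −1.76, −3.15 and −3, against −0.18 and 0.41 in W303, and fell 5.32-fold (limma adjusted p 0.0284). MSC1 fell 3.59-fold and the proteinase A inhibitor PAI3 3.48-fold (limma adjusted p 0.0333 and 0.0401). The membrane stress protein HSP12 read −1.13, −0.92, −1.38 and −1.66 and did not pass (limma adjusted p 0.109). HOR7 was the 1 gene of the list above 0 on all 4 arrays, at 0.43, 0.16, 0.48 and 0.94. The median of the list was −0.60 in pair A, −1.50 in pair B and 0.22 in W303. Of 25 heat shock chaperones 1 (4%) was below on all 4, HSP26 (−0.63, −0.73, −3.04 and −3.12), against 6.75% of all ORFs. Above on all 4 was 1 (4%), HSP60, against 11.5%.

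Enzymes that remove aldehydes and peroxide included 4 further genes that fell. ALD3 and ALD2, cytosolic aldehyde dehydrogenases, had means of −2.39 ± 0.80 and −1.64 ± 0.07 (SD, n = 2). They are near-identical neighbours on their chromosome, so which of them gave each signal is uncertain. ALD4, the main mitochondrial aldehyde dehydrogenase, read −1.59, −1.16, −1.86 and −2, and −1.12 and −1.11 in W303. CTT1, the cytosolic catalase, read −1.45, −1.62, −1.99 and −2.31, and −0.26 and −1.01 in W303. In both genes every tetYFH1 array lay below both W303 arrays, which were themselves below 0. Of 27 genes of peroxide and superoxide defence, CTT1 and CTA1 among them, 6 (22.2%) were below on all 4, against 6.75% of all ORFs. Above on all 4 was 1 (3.70%), against 11.5%. The other 20 had both signs or an exact 0, the latter in 11 genes, and the list's median was −0.02.

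The other genes that fell belong to several pathways. FDH1, a formate dehydrogenase, read −2.90, −2.74, −3 and −3.57, against −1.59 and −0.92 in W303, and fell 8.30-fold (limma adjusted p 0.00944). CHA1, the deaminase that breaks down serine and threonine, read −2.03, −2.25, −2.13 and −2.31, a narrow range, but its W303 values of −0.41 and −2.07 reached that range. RGI2, named for its induction in respiratory growth, fell 3.55-fold, GIP2, a regulator of the phosphatase Glc7, 3.04-fold and the SUMO ligase MMS21 2.92-fold. The remaining 4 of the 25 were TKL2, NQM1, GND2 and the ORF YBR116C. YBR116C overlaps TKL2, so it cannot be told whether YBR116C (−2.76, −2.69, −2 and −1.54) changed in its own right.

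Of the 57 further ORFs at least 2-fold lower and below 0 on all 4 arrays, which did not pass, some were even across the arrays and others rested on pair B. Among the even ones were MDH2 (−1.05, −1.26, −1.01 and −1.47), the aldo-keto reductase GCY1 (−0.80, −1.23, −1 and −1), CUS2, a splicing factor of the U2 particle (−1.41, −1.28, −1.07 and −1.33), and MTF1, the mitochondrial RNA polymerase factor (−0.98, −1.23, −1 and −1.30). SHH4, a paralogue of the succinate dehydrogenase anchor Sdh4, read −1.51, −1.29, −1 and −1.28, and MIH1, the phosphatase that activates the mitotic kinase, −1.22, −1.21, −2 and −1.03. In these 6 genes no array lay nearer to 0 than −0.80, and their limma adjusted p lay between 0.0797 and 0.206.

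Others of the 57 were moderate in pair A and far lower in pair B. GYP7, a GTPase-activating protein of vacuolar transport, read −0.46, −0.54, −3 and −2.15, and GAD1, the glutamate decarboxylase, −0.59, −0.70, −1.82 and −1.80. The outer mitochondrial membrane protein OM45 read −0.15, −0.60, −2.15 and −2.09, and GPA2, the G protein subunit of glucose sensing, −0.15, −0.34, −2 and −2.08. The W303 arrays were near or above 0 for GYP7, GAD1, OM45 and GPA2, between −0.03 and 0.57. CRF1, a repressor of ribosomal protein genes, was 1 of 15 lower ORFs further from 0 in pair A, at −1.80 and −1.87 in pair A and −0.69 on both B arrays.

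**Figure D2:**
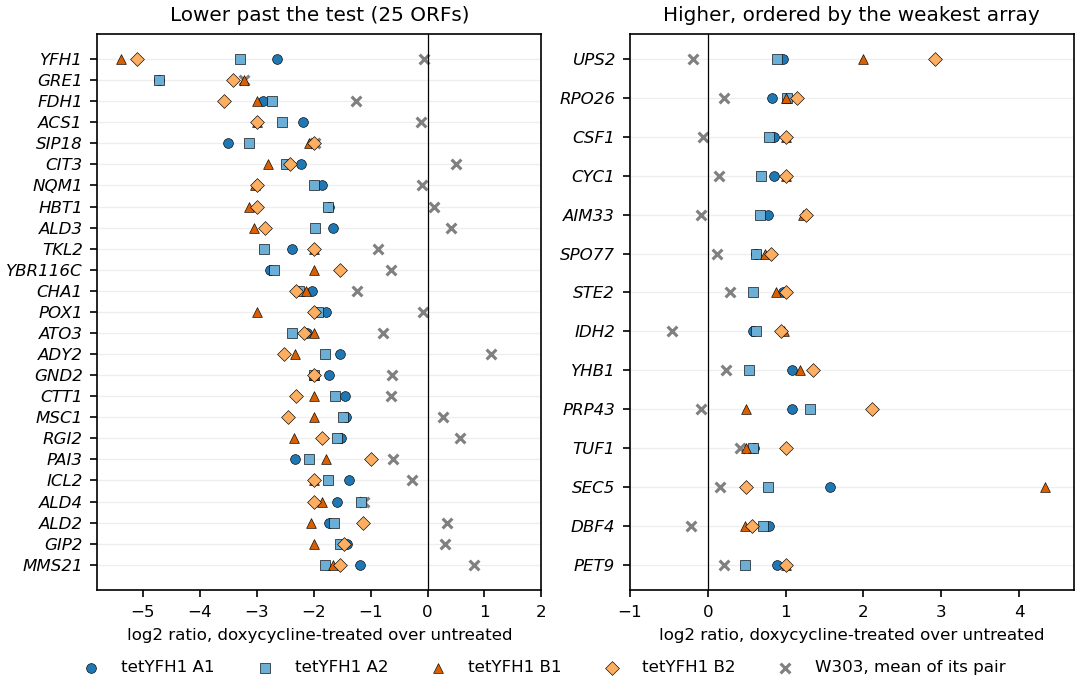
Log2 ratios on each tetYFH1 array (filled symbols) and the mean of the W303 pair (grey crosses) for the 25 ORFs that fell past the test (left) and for 14 genes with a symbol that were above 0 on all 4 arrays, ordered by their weakest array (right). On the left each filled symbol lies at −1.0 or lower, while the W303 crosses range from −3.22 to 1.11. On the right the weakest array of each gene lies between 0.48 and 0.89.

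On the higher side genes with a symbol were ordered by their weakest array, since 1 extreme array could otherwise lead. UPS2, a mitochondrial regulator of phosphatidylethanolamine, read 0.97, 0.89, 2 and 2.91, against 0.02 and −0.39 in W303, and had the highest weakest array of all ORFs. RPO26, a subunit shared by the 3 nuclear RNA polymerases, read 0.82, 1.02, 1 and 1.15, against 0.26 and 0.15 in W303. Its 4 arrays were close together and all above W303. With pair means neither passed (limma adjusted p 0.180 for UPS2 and 0.217 for RPO26), whereas with each array as a replicate RPO26 had the smallest limma adjusted p of the higher side (0.00959).

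Several of the genes that followed encode mitochondrial proteins, as listed here one by one. CYC1, the main form of cytochrome c, read 0.86, 0.69, 1 and 1, against 0.32 and −0.02 in W303. PET9, the ADP/ATP carrier of the inner membrane, read 0.89, 0.48, 1 and 1, against 0.04 and 0.37. IDH2, a subunit of the NAD-dependent isocitrate dehydrogenase, read 0.58, 0.63, 0.98 and 0.95, against −0.70 and −0.21. In each of these genes all 4 tetYFH1 arrays lay above both W303 arrays. TUF1, the mitochondrial translation elongation factor, read 0.60, 0.59, 0.49 and 1. TUF1 reached 0.59 in W303 too, inside its tetYFH1 range. Limma adjusted p values of the 4 genes ranged from 0.311 to 0.487.

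The nitric oxide-consuming flavohemoglobin YHB1 read 1.09, 0.53, 1.19 and 1.35, against 0.39 and 0.09 in W303. CSF1, a large lipid transport protein, read 0.85, 0.79, 1 and 1, and AIM33 read 0.78, 0.67, 1.23 and 1.26. The W303 arrays lay near 0 for CSF1 (0.05 and −0.16) and AIM33 (0.01 and −0.19). STE2, the receptor for alpha factor, had a mean of 0.86, SPO77, a gene of spore wall formation, one of 0.70, and DBF4, the activator of the replication kinase Cdc7, one of 0.64. PRP43, an RNA helicase of splicing and ribosome assembly, read 1.09, 1.31, 0.50 and 2.11, and its pair means (1.20 and 1.30) differed by less than its arrays did. PRP43 shared the smallest limma adjusted p of the 15 genes (0.0863) with the exocyst subunit SEC5.

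Some of the largest means on the higher side came from 1 array. NCE101 had the highest mean, 1.98, and read 6.94 on B1 against 0.26, 0.70 and 0.01 on A1, A2 and B2. TEM1, a GTPase of mitotic exit, read 5 on B1 and 0.80, 0.87 and 0.30 elsewhere. BET1, a SNARE of transport from the endoplasmic reticulum, read 4 on B1 and at most 1 elsewhere. SEC5 read 1.57, 0.77, 4.33 and 0.49, and the ATPase ARB1 0.08, 3.28, 0.71 and 1.29. On the lower side the same held for FRE5, whose mean of −1.40 rested on −4.92 on B2 beside −0.27, −0.19 and −0.24. On the higher side again, the ORF YEL008W read 3.73 on B1 and 0.16, 0.45 and 0.20 on A1, A2 and B2. In the cell wall transglycosylase UTR2 (0.67, 0.26, 3 and 2.36) and the S-adenosylmethionine synthetase SAM1 (0.45, 0.54, 2.71 and 2) both B arrays were high. The same shape was seen in URA1, an enzyme of pyrimidine synthesis (0.15, 0.13, 1.80 and 1.93), in YHM2, a mitochondrial carrier (0.32, 0.13, 2.30 and 1.48), and in the choline transporter HNM1 (0.39, 0.75, 2.19 and 1.14). YHM2 was below 0 in W303 (−1.21 and −0.64), and URA1 lay on either side of 0 there (−0.18 and 0.45).

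**Figure D3:**
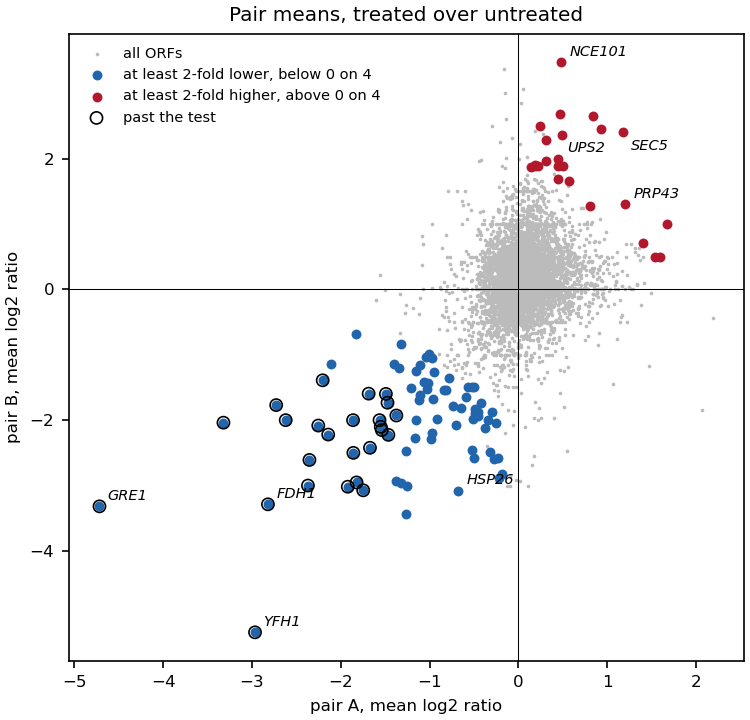
Mean log2 ratio of pair B against that of pair A for 6174 ORFs (grey), with the 82 lower (blue) and 24 higher (red) one-sign ORFs of at least 2-fold and the 25 past the test (open circles). The blue points spread along both axes, with 45 beyond 2-fold on both, while 3 of the red points are.

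Whether ORFs chosen in 1 pair read the same way in the other was counted next, with the share of all ORFs beside it. Of 46 ORFs at −1 or lower on both A arrays, 40 (87.0%) were below 0 on both B arrays and 0 above on both, where 13.6% of all ORFs were below 0 on both B arrays. At −0.5 or lower on both A arrays there were 151 ORFs, with 98 (64.9%) below on both B arrays. On the higher side the share at 0.5 was close to the background. Of 203 ORFs at 0.5 or higher on both A arrays, 50 (24.6%) were above 0 on both B arrays, where 25.3% of all ORFs were. Without ORFs with an exact 0 in pair B these shares were 40.7% of the chosen and 39.5% of all. At 1 or higher there were 19 such ORFs, of which 7 (36.8%) were above on both B arrays, against 25.3% of all. Without exact zeros that was 53.8% of 13 chosen ORFs, against 39.5% of all.

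Chosen in pair B and read in pair A, both sides stood above the background. Of 188 ORFs at −1 or lower on both B arrays, 124 (66.0%) were below 0 on both A arrays, where 29.7% of all ORFs were. Of 213 ORFs at 1 or higher on both B arrays, 128 (60.1%) were above 0 on both A arrays, where 37.7% of all ORFs were. The shares hold for the arrays as dye-swap pairs, and whether the pairs share RNA is not stated. A smaller set had opposite signs in the pairs: 17 of the 151 ORFs low on both A arrays (11.3%) were above 0 on both B arrays. That share was below the 25.3% of all ORFs above 0 on both B arrays. To this set belonged the siderophore transporters ARN1 (−0.64, −0.57, 2 and 1) and SIT1 (−0.58, −0.79, 2 and 1) and the ferric reductase FRE1 (−0.59, −0.67, 0.96 and 1.60), named after their values were seen. They were picked from the 17, which also held ILV5, ACC1 and SSB1.

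Gene lists were then read by how many members were on one side of 0 on all 4 arrays, against 6.75% below and 11.5% above among all ORFs. The 60 lists held 51 of the 82 lower, 19 of the 24 higher and 22 of the 25 called ORFs, beside 1357 of all 6174. The lists were chosen with earlier results of these data known, so this coverage is partly built in. On the lower side, 3 of 3 acetate and ammonium transporters, 3 of 5 aldehyde dehydrogenases and 5 of 11 genes of glycerol use and synthesis were below on all 4. In the glycerol list GCY1, STL1, DAK1 and the glycerol kinase GUT1 had means of −1.01, −0.71, −0.68 and −1.08, none past the test, and 0 members were above on all 4. STL1, the glycerol symporter, was lower in W303 (−1.72 and −1.51) than in tetYFH1. Of 7 vacuolar protease genes 3 were below and 0 above, led by the carboxypeptidase CPS1 (mean −1.19).

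Lists with both directions or smaller shares followed. Of 28 autophagy genes 5 were below on all 4 and 0 above, among them ATG8, the ubiquitin-like protein of the autophagosome (−0.59, −0.24, −1.18 and −0.63), but the list's median was −0.09 and turned to 0.01 when ORFs with a whole log2 number in pair B were left out. The 20 trehalose and glycogen genes had a median of 0.12 in pair A and −0.81 in pair B. That list had 3 members below on all 4, GIP2, the glycogenin GLG1 and the phosphatase subunit GAC1, and GIP2 alone passed. Amino acid permeases and ammonium transporters had 3 of 18 below (DIP5, PUT4 and BAP2, at −2.14, −1.63 and −0.84) and 3 above (MEP3, BAP3 and GNP1, at 0.78, 0.56 and 0.34). The acidic amino acid permease DIP5 had its lowest values in pair B (−3 and −2.92, against −1.27 and −1.37 in pair A) and missed the threshold (limma adjusted p 0.085).

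On the higher side the cytosolic ribosomal proteins had the largest share. Of 133 genes, 90 were above 0 on all 4 arrays and 0 below, 57 of 78 in the large and 33 of 55 in the small subunit. None passed the test, the median was 0.63 (pair A at 0.21, pair B at 1.01), and in W303 it was −0.49. Among them RPS22A read 0.48, 0.40, 2.12 and 1.65, and RPL7A read 0.39, 0.80, 1.67 and 0.78. RPL7A was above 0 in W303 as well, at 0.84 and 0.47. Paralogous ribosomal protein genes share much sequence, so single copies may not be told apart on the array. Centring each array left 84 of the 133 above on all 4.

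Other lists of protein synthesis had smaller shares. Of 18 cytosolic tRNA synthetases 8 were above and 0 below (median 0.32), of 35 translation factors 10 and 0 (median 0.31), and of 26 subunits of RNA polymerases I and III 6 and 0 (median 0.27). The elongation factor gene EFB1 read 0.41, 0.52, 0.60 and 0.74, against −0.45 and −0.67 in W303, with no overlap. Ribosome assembly factors did not follow, with 4 of 77 above and 2 below, and a median of −0.16 in pair A and 0.53 in pair B. After centring the counts above were 4 for the synthetases, 6 for the translation factors and 5 for the polymerase subunits.

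Mitochondrial lists lay on the higher side too, with small values beside the median of 0.11 over all ORFs. Of 70 mitochondrial ribosomal proteins 17 were above on all 4 and 0 below, at a median of 0.22, and their W303 median was higher (0.38). Of 30 genes of mitochondrial protein import 9 were above and 0 below (median 0.20), among them the processing peptidase subunit MAS1 (0.58, 0.45, 0.55 and 1). In the respiratory chain 8 of 23 were above and 1, NDE2, below, at a median of 0.27, with CYC1 and the cytochrome c1 gene CYT1 (0.58, 0.53, 0.67 and 0.44) at the head. Of 14 genes of the citric acid cycle after citrate 3 were above and 0 below, and 3 of 15 ATP synthase genes were above and 1 below. After centring, the counts above and below were 13 and 0 for the mitochondrial ribosomal proteins, 9 and 0 for import, 5 and 1 for the respiratory chain, 2 and 1 for the citric acid cycle and 2 and 1 for the ATP synthase. Over all 6174 ORFs the counts after centring were 539 above and 649 below. No gene of these lists passed.

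Lists of the dividing cell were the third group on that side. Of 29 cyclins and cell cycle regulators 12 were above on all 4 and 0 below (median 0.26), and 8 after centring. Besides TEM1 they included FAR1, the inhibitor of the cyclin-dependent kinase in mating (0.44, 0.44, 0.23 and 1.10), and the mitotic cyclin CLB1 (0.36, 0.22, 1.27 and 0.34). Of 11 genes of daughter cell separation 6 were above and 0 below, and also 6 after centring. DSE2, a secreted protein of the daughter cell wall, read 0.63, 0.59, 0.68 and 0.45, and the chitinase CTS1 0.52, 0.46, 0.73 and 0.23. These were among the most even rows on the higher side, and none passed (limma adjusted p 0.501 for DSE2 and 0.527 for CTS1). DNA replication genes had 5 of 34 above on all 4, close to the 11.5% of all ORFs, and core histones 3 of 10.

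**Figure D4:**
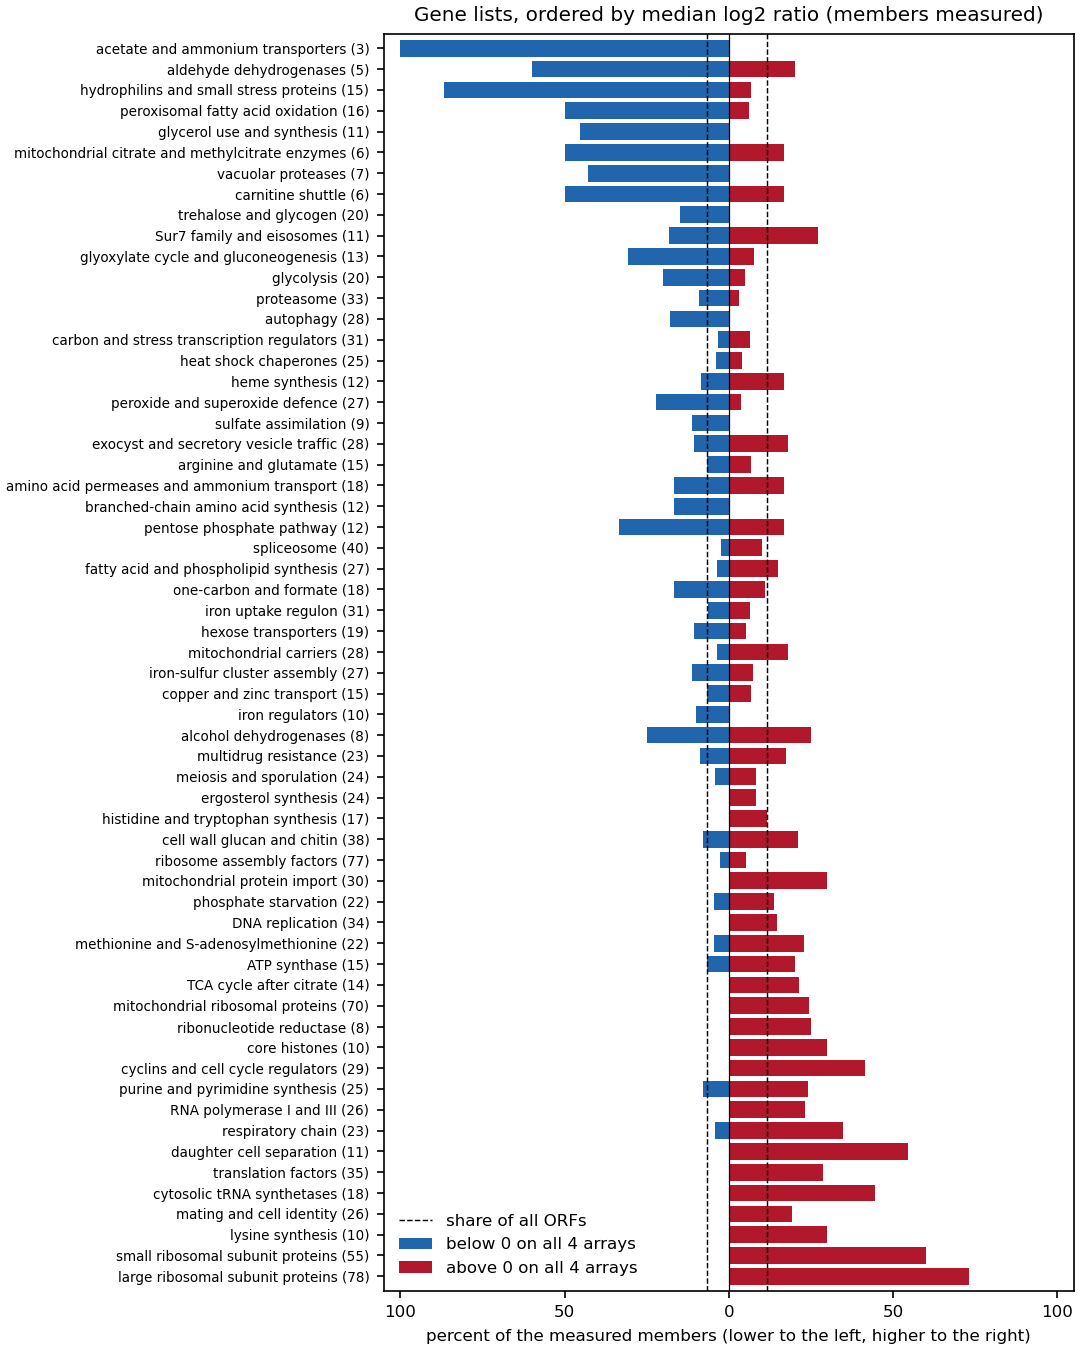
Share of the measured members of each gene list below 0 (blue, to the left) and above 0 (red, to the right) on all 4 tetYFH1 arrays, ordered by the list's median log2 ratio, with the number measured in brackets and dashed lines at the shares of all ORFs (6.75% and 11.5%). Transporters of acetate and ammonium, stress proteins and aldehyde dehydrogenases head the lower side and ribosomal proteins the higher side.

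The genes of iron, for which loss of frataxin is known, mostly lacked one sign on all 4 arrays, as did most ORFs. Of 31 iron uptake genes 2 (6.45%) were above on all 4, FET3 and FRE3, against 11.5% of all ORFs. Below on all 4 were 2 (6.45%), FRE5 and MRS4, against 6.75%. The other 27 had both signs or an exact 0, as had 5045 of all 6174 ORFs, and 12 of the 31 had an exact 0. FET3, the multicopper oxidase of high-affinity iron uptake, read 0.56, 0.46, 2 and 1.78, against −0.08 and −0.27 in W303, and did not pass (limma adjusted p 0.381). Of 27 genes of iron-sulfur cluster assembly, YFH1 alone passed. The ferredoxin YAH1 (0.41, 0.41, 1.43 and 0.46) and CIA2 (0.91, 0.02, 0.30 and 0.63) were above 0 on all 4, and CIA1 (−0.31, −0.38, −0.28 and −0.47) and NAR1 (−0.16, −0.19, −0.15 and −0.64) below, the last 3 being genes of the cytosolic branch of assembly. With 2 above and 3 below among 27, the assembly genes lay close to the shares of all ORFs. Heme synthesis had 2 of 12 above and 1, the ferrochelatase HEM15 (−0.13, −0.13, −0.55 and −0.61), below.

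Amino acid and multidrug resistance lists held a few of the higher genes. In methionine and S-adenosylmethionine metabolism 5 of 22 were above on all 4 and 1 below, with SAM1, CYS3, the cystathionine lyase (0.54, 0.36, 2 and 2), and the methionine permease MUP1 (0.51, 0.11, 2.55 and 2). These 3 were at least 2-fold higher on average through pair B. Lysine synthesis had 3 of 10 above and 0 below, led by the homoaconitase LYS4 (0.38, 0.43, 0.90 and 1). Of 23 multidrug resistance genes 4 were above and 2 below. QDR3, a multidrug and polyamine exporter, was 1 of the 4 2-fold higher genes that were higher in pair A (1.63 and 1.17) than in pair B (0.45 and 0.97).

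Isoenzymes and paralogues often lay on opposite sides of 0. These families were picked after the values had been seen, so their pattern is a description. In the pentose phosphate pathway TKL2, the minor transketolase, fell (−2.37, −2.87, −2 and −2, limma adjusted p 0.0155), while the major form TKL1 was above 0 on all 4 arrays (0.62, 0.33, 1 and 1). The minor 6-phosphogluconate dehydrogenase GND2 fell (−1.72, −2, −2 and −2), while the major form GND1 had both signs. NQM1, the minor transaldolase, fell (−1.85, −1.99, −3.04 and −3), while TAL1, the major one, had both signs. The 6-phosphogluconolactonases split likewise, SOL4 at a mean of −0.92 and SOL3 at 0.61, both of one sign on 4 arrays. The list of 12 pathway genes therefore had 4 below and 2 above on all 4, with a median of 0.05 that turned to −0.01 after centring.

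Outside that pathway the same split was seen on all 4 arrays in 6 more families. ACS1 fell while the other acetyl-CoA synthetase ACS2 read 0.45, 0.16, 1 and 1.09. The external NADH dehydrogenase NDE2 read −1.20, −1.33, −2.22 and −2.73, and its paralogue NDE1 0.30, 0.01, 0.86 and 0.99. Among hexose kinases HXK1 and GLK1 had means of −0.60 and −0.70, and HXK2, the form that predominates in glucose-grown cells, had 0.83. ALD2, ALD3 and ALD4 fell and ALD6, the main cytosolic aldehyde dehydrogenase, read 0.12, 0.14, 1 and 1. Of the malate dehydrogenases the cytosolic MDH2 had a mean of −1.20 and the mitochondrial MDH1 one of 0.25. In the Sur7 family of membrane proteins FMP45 (−0.94, −1.60, −3.02 and −3.86) and YNL194C (−0.30, −0.73, −3 and −1.91) lay opposite SUR7 (0.67, 0.34, 1.50 and 0.60). CIT1 and RTN1, whose paralogues CIT3 and RTN2 were of one sign, had both signs or an exact 0.

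The W303 values of these families did not share the split. TKL1 and TKL2 were both below 0 in W303, at means of −0.92 and −0.87, and HXK1, FMP45 and YNL194C were above 0 there, at 1.02, 0.88 and 1.80. CIT2, the peroxisomal citrate synthase, was below 0 on all 4 tetYFH1 arrays (−0.11, −0.35, −1.76 and −1.49) and read 1.57 and 2 in W303. None of these differences between the strains passed in the limma test of the difference, for which W303 gave 1 pair.

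**Figure D5:**
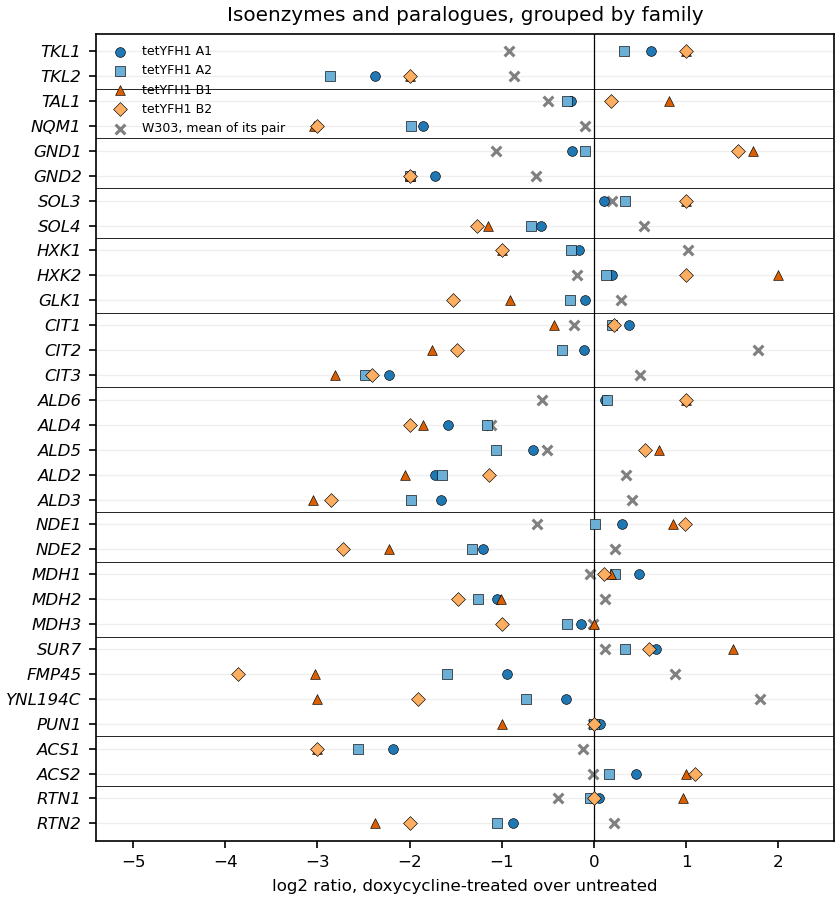
Log2 ratios on each tetYFH1 array (filled symbols) and the mean of the W303 pair (grey crosses) for 32 genes in families of isoenzymes or paralogues, separated by lines. In the families of TKL, SOL, HXK, ALD, NDE, MDH, SUR7 and ACS genes at least 1 member lies below 0 and 1 above 0 on all 4 arrays.

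Position in the genome was looked at last, with the gene order of the R64 assembly. Of the 82 lower ORFs 81 could be placed, and 10 had a neighbour in the set, in the pairs FMP45 and HBT1, ALD3 and ALD2, PAI3 and SIP18, YNL194C and YNL195C, and CIT3 and PDH1. Their other 141 measured neighbours were below 0 on all 4 arrays in 6 cases (4.26%), against 6.75% of all ORFs. The 24 higher ORFs held 1 neighbouring pair, ERG5 and SOK2. Of the 44 other neighbours 9 (20.5%) were above on all 4, against 11.5% of all ORFs. ERG5 and SOK2 differed by array: ERG5, a sterol desaturase, was high in pair B (1.83 and 1.97) and the regulator SOK2 on A1 (2.04) and A2 (1.03).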

How the data were processed

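Each array came as a column of log2 ratios that the authors deposited, treated over untreated per the labels, and none was missing. Their scanning, normalization, spot averaging and probe type are not given in the labels or headers used here. The deposited values were used without further scaling. ORF names were matched to R64 locus tags (5675 of 6174 matched, 499 did not, 5158 had a symbol), and the table gave names and gene order alone. Both arrays of each dye-swap pair were averaged, and limma fitted 1 mean per strain over the 3 pair averages (limma 3.58.1, R 4.3.3, empirical Bayes, 1 residual and 6.64 prior degrees of freedom). Tests were two-sided, with Benjamini-Hochberg adjustment over 6174 ORFs and a threshold of 0.05. W303 had 1 pair and was assumed to vary like tetYFH1. On simulated data the fit recovered large changes, and its share of false calls exceeded the nominal level.

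A call on sign needed a value above or below 0 on all 4 arrays, and a 2-fold call also a mean of at least 1 in log2 ratio. Genes were named by rule: YFH1, every ORF past the test, 15 per direction by weakest array, 5 per direction by mean, and up to 4 per list and direction by weakest array. Isoenzymes, genes that changed sign between pairs, neighbours, further 2-fold ORFs and GND1, TAL1, HSP12, HXT5 and GUT1 were named after their values were seen where the rule did not cover them. The genes and lists were chosen with earlier results of these data known. The settings varied were the replicate unit (arrays in place of pairs, alone or with the Exp number added), the pair letter as a random block, robust moderation, centring, scaling, a margin of 0.1 around 0, omission of ORFs with a whole log2 number in pair B, and leaving out single arrays or a whole pair. Some genes that the naming rule covers are not reported here.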

Additional observations from a re-analysis of the deposited data

Results flagged for a closer look

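Among the 137 genes and ORFs named, 11 had 1 tetYFH1 array far from the other 3 relative to the range of the 4. For 4 values of one common spread chance gives about 1 in 20. Pair B spread wider than pair A and held many whole numbers, so that rate may not hold here. On B1 the flagged ones were NCE101 (6.94), TEM1 (5), the ORF YEL008W (3.73), YAH1 (1.43), CLB1 (1.27), RTN1 (0.96) and MRS4 (−0.69). On B2 they were FRE5 (−4.92) and NAR1 (−0.64). On A1 they were BAP2 (−0.56) and GND2 (−1.72), the latter beside 3 values of −2.00. Their causes were not tested.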

How the results depend on the processing

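The 25 lower calls, the 0 higher calls and the 0 calls of the difference between strains became 68, 18 and 8 with each array as a replicate, and 79, 20 and 10 with the pair letter as a random block. With the Exp number as a replicate block they became 53, 6 and 4, and since that number marks the dye orientation it was read as a dye term, not as a pairing of samples. All 25 lower calls were kept in these 3 fits. Without pair A the counts were 84, 22 and 100, and without pair B 112, 188 and 140, the arrays left being entered singly. Centring left 0 lower calls, as did centring with scaling, and omission of ORFs with a whole log2 number in pair B left 3. That omission itself took out 15 of the 25. Without 1 array the lower calls ranged from 0 (without A2, B1 or B2) to 15 (without A1). Robust moderation gave 22.

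The mean of YFH1 ranged from −4.27 to −3.94 without 1 array. It lost its call with robust moderation (−4.11), after centring (−4.17) or scaling (−4.19) and without ORFs with whole numbers (−4.11). The 417 ORFs below 0 on all 4 became 649 after centring, with or without scaling, 479 to 850 without 1 array, 839 without pair A and 1835 without pair B. The 712 above became 374 with a margin of 0.1, 944 to 1584 without 1 array, 1560 without pair A and 2325 without pair B. The 82 lower ORFs became 41 without whole numbers and 223 without pair A. The 24 higher ORFs became 14 after centring and also 14 without whole numbers, 26 to 72 without 1 array, 311 without pair A and 56 without pair B. Other settings moved these counts by less than 1.5 times, and the causes were not tested. No ORF past the test and none of the 15 higher genes ordered by weakest array changed sign in any setting. All of these had one sign on all 4 arrays, so only the settings with centring could have changed it. A planned description of promoter motifs was not run. The test rests on 1 residual degree of freedom, and background signal was not available to set a detection limit.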
